A study of Mus musculus with 6 samples.

Results

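Collagen genes were the subject of a comparison between sorted skin cells of newborn control mice and of mice labelled as lacking both Ring1a and Ring1b, the catalytic RING proteins of Polycomb repressive complex 1 (PRC1). The set held all 42 rows of the count tables whose symbol names a collagen chain (Col, a type number, the letter a and a chain number), without Col7a1 and Col17a1, out of 24453 rows. It was divided by textbook class into 11 fibrillar, 6 basement membrane, 9 FACIT (fibril-associated collagens with interrupted triple helices), 6 beaded filament, 3 network, 2 multiplexin, 3 transmembrane and 2 other genes. The series asks what PRC1, a chromatin complex that represses genes, does in skin epithelium.

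Bulk RNA sequencing was done on 6 libraries of back skin cells sorted by flow cytometry at postnatal day 0. Of these, 3 carry the genotype Control, for which the labels give no allele, and 3, titled Ring1a/b 2KO, carry the genotype Ring1a-/- Ring1b-/- (2KO below). The labels give neither a Cre driver nor the deleted part of either gene, and they do not say whether the control mice lacked Ring1a or whether animals were pooled. The cells are labelled as hair follicle cells, while the protocol text describes a gate for interfollicular epidermis (EpCAM and Sca1 positive, high in α6-integrin). Nothing in the labels says that the replicates came from separate animals, so p-values measure the spread between these libraries.

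Collagens are proteins of the extracellular matrix built from alpha chains that wind into a triple helix. Fibrillar collagens, made in skin mainly by dermal fibroblasts, form the fibrils of the dermis, and type IV collagen forms the sheet of the basement membrane on which basal keratinocytes sit. FACIT collagens decorate fibrils, type VI collagen forms beaded microfilaments next to basement membranes, and multiplexins bridge basement membrane and fibrils. In bulk samples, fewer cells of a type and less RNA per cell cannot be told apart.

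Library totals ranged from 24.8 to 30.8 M counts, so that 1 count was worth 0.0323 to 0.0392 CPM (counts per 1 M counts, scaled by TMM, a library scaling of edgeR). Keratinocyte genes summed to between 13100 and 26400 CPM per library. Of 6 hair follicle genes, all detected in every control library, 4 were lower in 2KO (edgeR, against 2.42% of all tested genes), and of these Krt25 had 0 counts in all 2KO libraries. Neither targeted gene told the groups apart. Ring1 was at 19.5, 22.4 and 3.37 CPM in control replicates 1, 2 and 3 and at 1.84, 7.34 and 14.1 CPM in 2KO replicates 1, 2 and 3, and Rnf2 (RING1B) was at 47.1 to 79.5 CPM in control and 66.4 to 89.2 CPM in 2KO. Control replicate 3 was thus low in Ring1 against its label and 2KO replicate 3 was not, so directions below are those between libraries so labelled. The libraries numbered 3 also stood apart from their group in Xist, an RNA of female cells. It was at 2.48, 9.27 and 4550 CPM in control replicates 1, 2 and 3. In 2KO replicates 1, 2 and 3 it was at 5360, 4950 and 10.4 CPM. A fit with the level of Xist as a covariate is among the alternative settings. Over all tested genes, in contrast, each library was closest to its own group: control replicate 3 had a Spearman correlation of 0.969 and 0.979 with the other controls and 0.917 to 0.928 with the 2KO libraries, and 2KO replicate 3 had 0.954 and 0.968 with the other 2KO libraries and 0.911 to 0.937 with the controls. Counts are also given with both libraries numbered 3 left out.

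Collagen genes of several classes were higher in the libraries labelled 2KO. Of 33 members with enough counts to be tested, 7 passed as higher, namely the fibrillar genes Col2a1, Col5a1 and Col5a2, the beaded filament genes Col6a1 and Col6a2, the multiplexin gene Col18a1 and the FACIT gene Col19a1 (edgeR quasi-likelihood test, Benjamini-Hochberg adjusted p under 0.05 over all 14972 tested genes). That is 21.2% of the tested members, where 6.61% of all tested genes were higher. No member passed as lower, where 2.42% of all tested genes did (9.02% changed in either direction). At an unadjusted p under 0.05, 11 members were higher and 3 lower, where 12.7% and 8.9% of all tested genes were. DESeq2 called 10 higher and 1 lower (9.46% and 4.9% of all genes with an adjusted p), and limma-voom 7 and 0 (6.89% and 2.69%). The low-count filter asked for 0.345 CPM in at least 3 libraries. For 4 tested members, Col2a1, Col11a1, Col19a1 and Col6a6, it was met by all 3 2KO libraries but by only 1 control library (2 for Col19a1), so their entry into the test rested on their level in 2KO. The median log2 fold change of the tested members was 0.26, with 21 above 0 and 12 below, and that of all tested genes was -0.02. Without any overlap between groups were 12 of the 33 members (36.4%), with 2KO above for 9 and below for 3. Over all tested genes they did not overlap for 28.4%, with 15.2% above and 13.1% below.

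**Figure D1:**
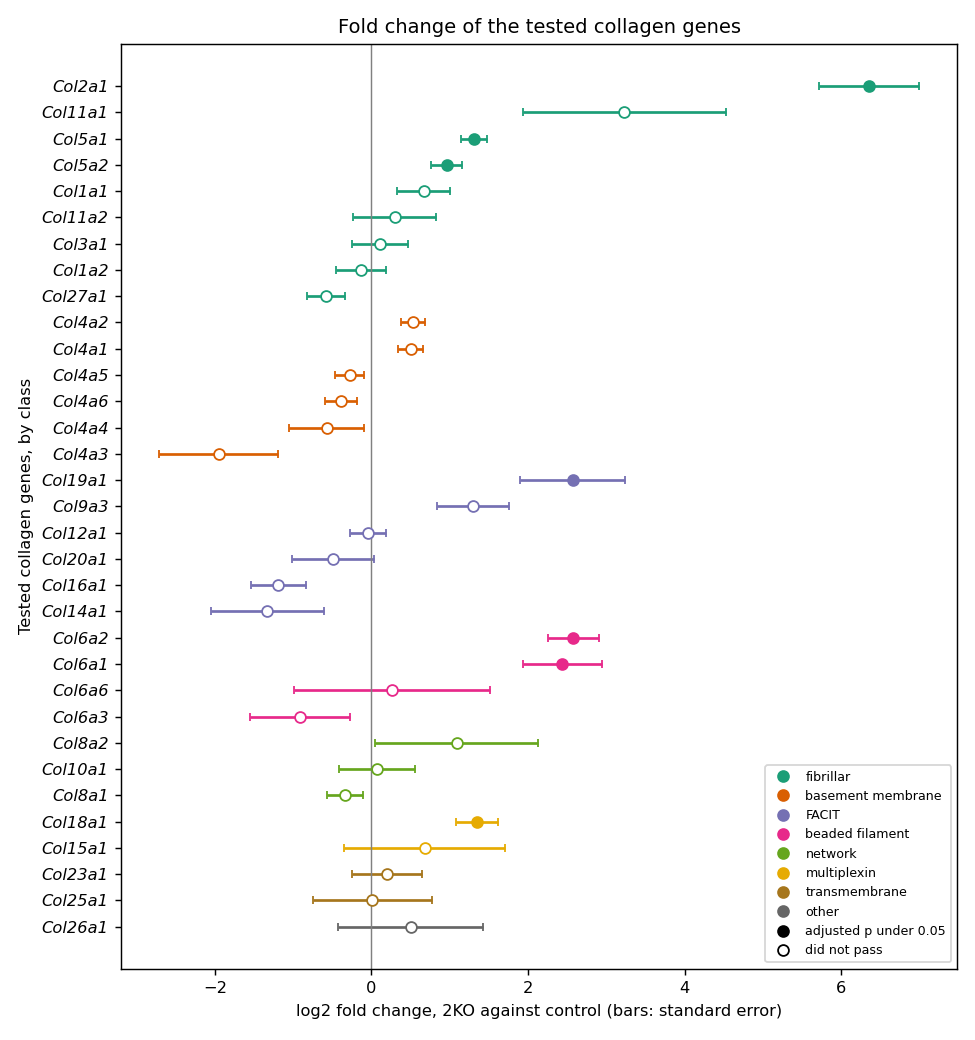
Log2 fold change of 2KO against control (x axis) for the 33 tested collagen genes (y axis), coloured by class, with standard errors as bars and filled circles for an adjusted p under 0.05. The 7 filled circles all lie above 0, from 0.96 for Col5a2 to 6.36 for Col2a1, and the lowest value, -1.95 for Col4a3, did not pass.

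With both libraries numbered 3 left out, 3 members were higher (Col2a1, Col5a1 and Col6a2) and none lower, where the share of all tested genes was 2.04% and 0.476%. Leaving out 1 library at a time left 5 to 9 higher members and 3.98% to 5.53% of all tested genes higher. Of dermal fibroblast markers other than collagens, 4 of 9 tested (Pdgfra, Thy1, Fbn1 and Dlk1) were higher in 2KO (44.4%, against 6.61% of all tested genes). The other 5 did not pass, with log2 fold changes of 1.12 for Pdgfrb, 0.61 for Vim, 0.26 for Mfap5, -0.47 for Lsp1 and -0.77 for Dpt. The 10 markers summed to 59.1 to 78.5 CPM in control and 187 to 296 CPM in 2KO. The largest parts of that difference lay in Fbn1 (means of 18.4 CPM in control and 99.7 CPM in 2KO) and Thy1 (13.8 and 47.7 CPM). None of the 10 was at 0 in all libraries. Of the defining genes, Pdgfra was at a mean of 0.896 CPM in control and 10.2 CPM in 2KO, and Twist2, too low to test, at 0.192 and 0.0131 CPM. The part of these cells in the collagen changes was not tested.

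**Figure D2:**
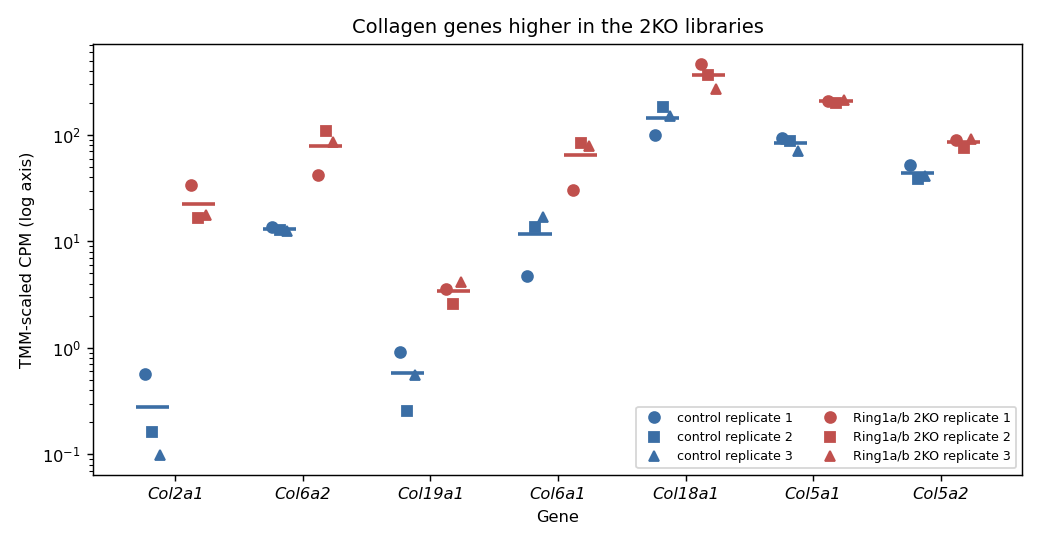
TMM-scaled CPM (y axis, log scale) in each of the 6 libraries for the 7 collagen genes that were higher in 2KO (x axis); horizontal lines are group means and symbols mark replicate numbers. In every gene the lowest 2KO library lies above the highest control library, as for Col6a2 with 41.8 against 13.8 CPM.

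Upstream sequence is shown for the higher members for which a RefSeq promoter table (build GRCm38.p6) held a window with bases outside every annotated gene, to let their CG content be seen, since Polycomb complexes are known to act at CG-rich promoters. Each run is the part of the 250 bases before the start site that lies outside genes of GENCODE vM21, 5′ to 3′ on the gene's own strand, with CG dinucleotides in capitals. They are chr10:76726169-76726294 for Col6a1, chr10:76623631-76623880 for Col6a2, chr10:77166549-77166780 for Col18a1 and chr1:24587473-24587687 for Col19a1, all on the minus strand.
Col6a1: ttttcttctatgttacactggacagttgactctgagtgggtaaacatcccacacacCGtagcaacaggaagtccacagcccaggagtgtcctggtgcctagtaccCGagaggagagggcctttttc
Col6a2: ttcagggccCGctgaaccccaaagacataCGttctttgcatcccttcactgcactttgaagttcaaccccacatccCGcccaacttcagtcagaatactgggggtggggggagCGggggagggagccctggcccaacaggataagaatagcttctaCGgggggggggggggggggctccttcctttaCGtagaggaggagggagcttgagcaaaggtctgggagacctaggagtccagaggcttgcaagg
Col18a1: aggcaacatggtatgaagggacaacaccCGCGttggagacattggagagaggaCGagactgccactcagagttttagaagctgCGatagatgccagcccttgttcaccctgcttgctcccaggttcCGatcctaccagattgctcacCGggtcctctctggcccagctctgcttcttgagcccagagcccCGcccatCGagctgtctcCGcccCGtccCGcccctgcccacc
Col19a1: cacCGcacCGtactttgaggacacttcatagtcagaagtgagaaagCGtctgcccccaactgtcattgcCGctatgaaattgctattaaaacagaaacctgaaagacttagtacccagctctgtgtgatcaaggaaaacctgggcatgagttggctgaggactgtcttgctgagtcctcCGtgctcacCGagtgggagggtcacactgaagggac

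The printed runs hold 2 CG in Col6a1, 6 in Col6a2, 11 in Col18a1 and 6 in Col19a1. Over full windows of 300 bases (250 before the start and 50 after), the window of Col6a1 held 3 CG, a number reached by 76.7% of all 32851 windows. That of Col5a1 held 34, reached by 7.73%. Col18a1 has a pair of start sites in the table, with 16 and 6 CG, and Col6a2 likewise 16 and 6, while Col19a1 had 16. Members with similar or higher CG content did not pass, such as Col4a1 with 37 and Col8a2 with 32. Taking the richer window where a gene had more than 1, the median was 16.0 CG for the 5 higher members with a window and 13.5 for the 20 tested members that did not pass, against 7.0 for all windows. The 7.0 was taken over every window without that choice, so it is not a like measure. The poorer windows of Col18a1 and Col6a2, with 6 CG each, lay below it. The letters GGGCGG on either strand, which include a CG, stood in 22 of 36 windows of 33 members and in 35.7% of all windows, and TATAAA on either strand in 4 of 36 and in 13.6%. These are counts of letters in the window and were not tested.

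Among fibrillar genes, 3 of 9 tested were higher in 2KO and none lower, against 6.61% and 2.42% of all tested genes. At an unadjusted p under 0.05, 1 was lower (8.9% of all tested genes). DESeq2 and limma-voom called none lower (4.9% and 2.69%). The shares of all tested genes are also the measure for the class and role counts below. Classes and roles hold few genes, and differences between them were not tested. Col2a1, the chain of type II collagen of cartilage (minus strand of chromosome 15, 97975602 to 98004695), had 0.568, 0.161 and 0.0981 CPM in control replicates 1, 2 and 3 and 33.8, 16.5 and 17.7 CPM in 2KO replicates 1, 2 and 3. All 3 2KO libraries lay far above all 3 control libraries, with 1807 counts against 24. The mean was 82.2-fold higher (edgeR log2 fold change 6.36 with SE 0.64, adjusted p = 0.000725), and the gene passed in all 17 alternative settings.

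Type V collagen, which co-assembles with type I collagen and limits fibril width, was higher in both of its main chains. Col5a1 (chromosome 2, 27886425 to 28039514) was at 93.3, 88.1 and 70.1 CPM in control and 210, 200 and 212 CPM in 2KO. Its exons share 99 and 113 bp with a pair of antisense transcripts that have no row of their own. The 2KO libraries lay close together and well above control (edgeR log2 fold change 1.31 with SE 0.17, adjusted p = 0.0021). Col5a2 was at 52.5, 38.3 and 40.9 CPM in control and 90.4, 75.5 and 90.9 CPM in 2KO, again without overlap (edgeR log2 fold change 0.96 with SE 0.20, adjusted p = 0.0164). The call of Col5a2 was lost without control replicate 2 (edgeR adjusted p = 0.0647) or control replicate 3 (edgeR adjusted p = 0.0739). Col5a3, the minor chain, had 46 counts over control and 11 over 2KO and was not tested.

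The genes of the major dermal fibrils, types I and III, overlapped between the groups. Col1a1 was at 86.5, 34.0 and 35.9 CPM in control and 85.9, 83.5 and 79.6 CPM in 2KO, so that control replicate 1 alone reached the 2KO level (edgeR log2 fold change 0.67 with SE 0.34, adjusted p = 0.294). Without control replicate 1, Col1a1 passed as higher in 2KO (edgeR log2 fold change 1.27 with SE 0.21, adjusted p = 0.00948). Col1a2, the partner chain, was at 84.4, 46.3 and 44.0 CPM in control and 68.1, 35.4 and 56.3 CPM in 2KO (edgeR adjusted p = 0.874). It did not pass in any setting, nor did Col3a1, at 105, 44.4 and 36.1 CPM in control and 70.4, 65.7 and 63.4 CPM in 2KO (edgeR adjusted p = 0.91). Control replicate 1 was the highest library of these 3 genes.

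Divided by exon length, the level of Col1a1 was 1.39 to 1.94 times that of Col1a2 in control libraries and 2.39 to 4.46 times in 2KO libraries. Exon length here is the union of all annotated exons of a gene in GENCODE vM21, 6.563 kb for Col1a1 and 12.426 kb for Col1a2, so the size of the ratio depends on the annotation while its change between libraries does not. Type I collagen is assembled mainly from a pair of chains from Col1a1 and 1 from Col1a2. The ratio of Col1a1 to Col3a1 was 1.15 to 1.49 in control and 1.82 to 1.90 in 2KO. In both ratios the groups did not overlap. Planned were the ratios of Col1a1 to Col1a2, Col4a1 to Col4a2, Col6a1 to Col6a2 and Col9a1 to Col9a2. The ratio to Col3a1 and those to Col4a5, Col4a6 and Col6a3 below were added to these. No ratio was tested.

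Of the remaining fibrillar genes, Col27a1 had the second highest mean over all libraries after Col5a1 and was at 226, 157 and 138 CPM in control and 89.1, 140 and 119 CPM in 2KO (edgeR log2 fold change -0.58 with SE 0.24, adjusted p = 0.187). The groups overlapped through 2KO replicate 2. Col11a1, a chain of type XI collagen that forms fibrils with type II, was at 1.14, 0.0646 and 0.0654 CPM in control and 9.84, 1.10 and 0.981 CPM in 2KO. Its highest value in each group was in replicate 1, and the fold change did not pass (log2 3.23, SE 1.30, edgeR adjusted p = 0.181), while it did with DESeq2 (adjusted p = 0.0361) and without control replicate 1 (edgeR adjusted p = 0.0471). It is among the members whose entry into the test rested on the 2KO libraries. Col11a2 was at 3.98 ± 2.36 CPM in control and 4.88 ± 1.24 CPM in 2KO (SD, n = 3 each; edgeR adjusted p = 0.818). Col24a1 had 8 counts over control and 61 over 2KO, with 1 library of each group at 0, and was not tested.

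Basement membrane genes held none that passed in either direction among 6 tested, where 9.02% of all tested genes did. At an unadjusted p under 0.05, 2 were higher and 1 lower (12.7% and 8.9% of all tested genes). DESeq2 called 1 higher (9.46%) and limma-voom none. Col4a1 and Col4a2, which encode the chains of the common type IV network, start head to head on chromosome 8 and overlap by 22 bp at their starts. Col4a1 was at 227, 227 and 205 CPM in control and 354, 277 and 300 CPM in 2KO, and Col4a2 at 197, 188 and 182 CPM in control and 254, 265 and 303 CPM in 2KO. In both genes the groups did not overlap, but the differences missed the threshold (edgeR log2 fold change 0.50 with SE 0.16, adjusted p = 0.0925, for Col4a1 and 0.53 with SE 0.15, edgeR adjusted p = 0.0615, for Col4a2). With DESeq2 Col4a2 passed (adjusted p = 0.0336).

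The ratio of Col4a1 to Col4a2 per kb of exon stayed near 1, between 0.998 and 1.07 in control and between 0.878 and 1.24 in 2KO. Col4a5 and Col4a6, the X-linked chains of the type IV network found in epidermal basement membrane, lay 1308 bp apart, head to head. Col4a5 was at 102, 93.2 and 87.3 CPM in control and 87.0, 61.4 and 85.1 CPM in 2KO, all 3 below control (edgeR log2 fold change -0.28 with SE 0.19, adjusted p = 0.473). Col4a6 was at 62.5 ± 7.96 CPM in control and 47.6 ± 6.54 CPM in 2KO (SD, n = 3 each; edgeR log2 fold change -0.39 with SE 0.20, adjusted p = 0.302). The ratio of Col4a1 to Col4a5 per kb was 2 to 2.2 in control and 3.18 to 4.05 in 2KO, without overlap. That of Col4a5 to Col4a6 overlapped, at 1.66 to 1.94 in control and 1.51 to 2.53 in 2KO.

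Col4a3 and Col4a4, chains of the type IV network of the kidney filter, are a further head-to-head pair, 71 bp apart. They were the lowest of the class. Col4a3 was at 7.59, 2.94 and 1.28 CPM in control and 0.980, 0.534 and 1.53 CPM in 2KO (edgeR log2 fold change -1.95 with SE 0.76, adjusted p = 0.165). Control replicate 3 lay within the 2KO range. The exons of Col4a3 share 563 bp with a transcript on the other strand that has no row of its own. Strand use in counting is not given, so reads there cannot be assigned. Col4a4 was at 4.80 ± 1.46 CPM in control and 3.25 ± 1.11 CPM in 2KO (SD, n = 3 each; edgeR adjusted p = 0.57).

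**Figure D3:**
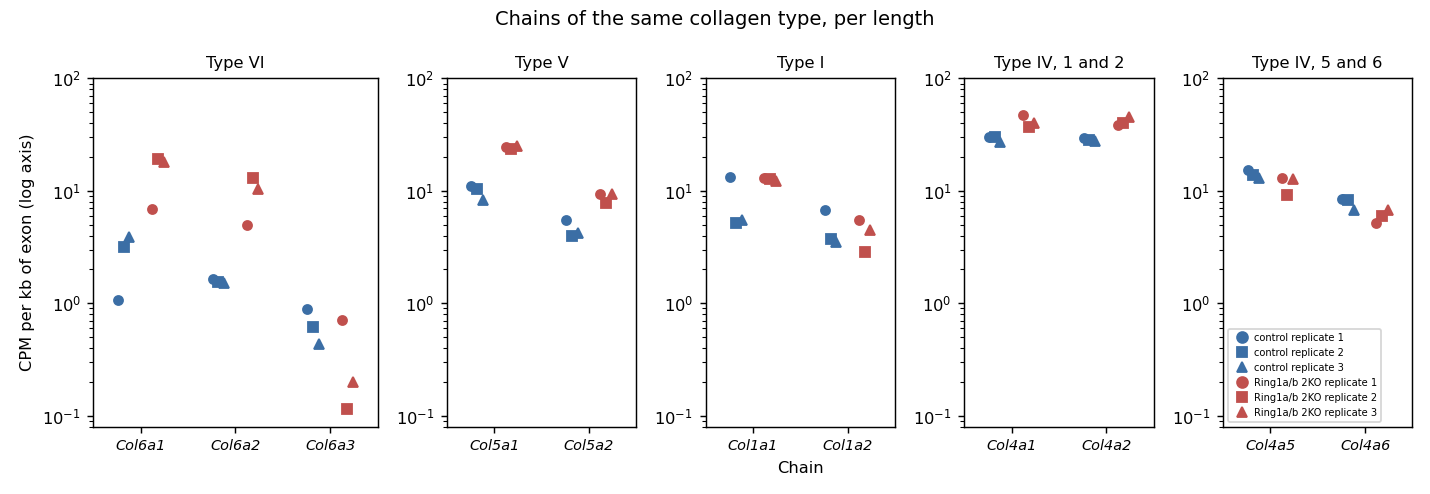
TMM-scaled CPM per kb of exon (y axis, log scale) of chains of the same collagen type in each library; each point is 1 library and symbols mark replicate numbers. Col6a1 and Col6a2 lie higher in the 2KO libraries and Col6a3 does not, so the ratio of Col6a2 to Col6a3 goes from between 1.87 and 3.51 in control to between 7.02 and 113 in 2KO, while Col4a1 and Col4a2 stay close to each other in every library.

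In the beaded filament class, 2 of 4 tested genes were higher in 2KO and none lower, against 6.61% and 2.42% of all tested genes. The counts were the same at an unadjusted p under 0.05, with DESeq2 and with limma-voom. Type VI collagen is assembled from a chain of each of Col6a1, Col6a2 and, in its most common form, Col6a3. Col6a1 (minus strand of chromosome 10, 76708792 to 76726168) was at 4.72, 13.8 and 16.9 CPM in control and 30.5, 84.0 and 78.4 CPM in 2KO. Replicate 1 was the lowest library of its group in both (edgeR log2 fold change 2.44 with SE 0.51, adjusted p = 0.0162). The call was lost without 2KO replicate 2 (edgeR adjusted p = 0.0534) or 2KO replicate 3 (edgeR adjusted p = 0.0563).

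Col6a2 (minus strand of chromosome 10, 76595762 to 76623630) was at 13.8, 12.9 and 12.6 CPM in control and 41.8, 108 and 86.0 CPM in 2KO. The control libraries hardly differed, and the rise was 5.99-fold in the means (edgeR log2 fold change 2.58 with SE 0.33, adjusted p = 0.00199), past the threshold in all 17 alternatives. Col6a3 (chromosome 1) was at 10.6, 7.39 and 5.17 CPM in control and 8.55, 1.37 and 2.39 CPM in 2KO. Its groups overlapped through 2KO replicate 1, and it did not pass (edgeR log2 fold change -0.91 with SE 0.64, adjusted p = 0.474). The ratio of Col6a1 to Col6a3 per kb of exon was 1.22 to 8.95 in control and 9.75 to 168 in 2KO. That of Col6a1 to Col6a2 overlapped, at 0.652 to 2.55 in control and 1.39 to 1.73 in 2KO. Whether the changes of these chains differ was not tested beyond these ratios. Of the other type VI genes, which encode chains that can replace that of Col6a3, Col6a6 was at 0.453 ± 0.584 CPM in control and 0.546 ± 0.181 CPM in 2KO (SD, n = 3 each; edgeR adjusted p = 0.942). Col6a4 and Col6a5 had 0 counts in control and 3 and 10 counts over 2KO, where 3 counts over the control group correspond to 0.0334 CPM.

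The FACIT class held 1 higher and no lower gene among 6 tested, against 6.61% and 2.42% of all tested genes. The counts were 2 and 1 with DESeq2 (9.46% and 4.9%) and 1 and 0 with limma-voom (6.89% and 2.69%). At an unadjusted p under 0.05 they were 2 and 1 (12.7% and 8.9%). So few calls among 6 genes are not a result about the class. Col19a1, which encodes a minor chain found near basement membranes (minus strand of chromosome 1, 24261890 to 24587472), was at 0.922, 0.258 and 0.556 CPM in control and 3.61, 2.60 and 4.16 CPM in 2KO. All 2KO libraries were above control at a low level, 276 counts against 51 (edgeR log2 fold change 2.57 with SE 0.67, adjusted p = 0.0424). Its call was lost on leaving out any library except control replicate 1 (edgeR adjusted p from 0.0762 to 0.128). The call was also lost with Xist as a covariate (edgeR adjusted p = 0.0744). The same held with both libraries numbered 1 (edgeR adjusted p = 0.0764) or both numbered 3 left out (edgeR adjusted p = 0.251).

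Type XII collagen, whose gene had the highest CPM of the class, did not pass the test. Col12a1 was at 283, 383 and 406 CPM in control and 417, 246 and 379 CPM in 2KO, fully overlapping (edgeR log2 fold change -0.04 with SE 0.23, adjusted p = 0.954). Col14a1, its close relative on dermal fibrils, was at 280, 141 and 122 CPM in control and 164, 13.6 and 39.4 CPM in 2KO. The replicate 1 libraries were the highest of their group, and 2KO replicate 1 lay within the control range (edgeR log2 fold change -1.33 with SE 0.72, adjusted p = 0.335). Without 2KO replicate 1 Col14a1 passed as lower (edgeR log2 fold change -2.77 with SE 0.53, adjusted p = 0.0177), as it did with both replicate 1 libraries left out (log2 fold change -2.30, edgeR adjusted p = 0.0231).

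Col16a1, a FACIT chain of the dermal-epidermal border, was at 23.9, 59.5 and 32.1 CPM in control and 20.1, 13 and 17.7 CPM in 2KO, all below control (edgeR log2 fold change -1.19 with SE 0.35, adjusted p = 0.0674). It passed as lower with DESeq2 (adjusted p = 0.0111), with no low-count filter (edgeR adjusted p = 0.0307) and without control replicate 1 (edgeR adjusted p = 0.0363). Of the chains of type IX collagen, a cartilage FACIT made of 1 chain from each of Col9a1, Col9a2 and Col9a3, only Col9a3 was abundant, at 20.6, 12.7 and 8.14 CPM in control and 58.0, 19.0 and 24.8 CPM in 2KO (edgeR log2 fold change 1.30 with SE 0.46, adjusted p = 0.129, and adjusted p = 0.0338 with DESeq2). Its exons share 234 bp with those of Tcfl5 on the other strand, and strand use in counting is not given, so reads there cannot be assigned. Col9a2 had 9 counts over control and 55 over 2KO, and Col9a1 had 0 counts in all 6 libraries. Col20a1 was at 2.64 ± 0.588 CPM in control and 1.88 ± 0.272 CPM in 2KO (SD, n = 3 each; edgeR adjusted p = 0.676), and Col22a1 had 8 counts, all in 2KO replicate 3.

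Col18a1, a multiplexin of basement membranes whose end fragment is endostatin (minus strand of chromosome 10, 77052178 to 77166548), was at 99.8, 185 and 151 CPM in control and 469, 366 and 272 CPM in 2KO. The groups did not overlap, and the mean was 2.54-fold higher in 2KO (edgeR log2 fold change 1.35 with SE 0.27, adjusted p = 0.0133). It passed on leaving out any single library and missed the threshold with the level of Xist as a covariate (edgeR adjusted p = 0.051). With both libraries numbered 3 left out it missed it too (edgeR adjusted p = 0.0691). In the 2KO libraries it was the most abundant member per length, at 52.6 CPM per kb of exon, ahead of Col4a1 at 41.5 and Col4a2 at 41.4, whereas in control it stood at 20.7, below Col4a1 (29.5), Col4a2 (28.6), Col14a1 (25.8) and Col12a1 (23.4). Col15a1, the other multiplexin, was at 2.41, 0.226 and 1.77 CPM in control and 4.86, 0.300 and 1.92 CPM in 2KO (edgeR adjusted p = 0.78).

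No network, transmembrane or other collagen passed in either direction by edgeR, DESeq2 or limma-voom, or at an unadjusted p under 0.05. Col8a1, a network chain made by endothelial and other cells, was at 51.8, 77.8 and 53.6 CPM in control and 49.8, 40.7 and 53.7 CPM in 2KO (edgeR log2 fold change -0.34 with SE 0.23, adjusted p = 0.439). Its partner Col8a2 lay under 3 CPM in every library, highest in 2KO replicate 1 at 2.55 CPM. Col10a1, the chain of hypertrophic cartilage, was at 3.93 ± 1.01 CPM in control and 4.13 ± 2.01 CPM in 2KO (SD, n = 3 each), and 18 bp of its exons are shared with Nt5dc1 on the other strand. Col23a1 was at 13.6, 12.5 and 7.62 CPM in control and 12.9, 5.47 and 20.4 CPM in 2KO, and Col25a1 at 9.01, 2.32 and 1.63 CPM in control and 8.20, 1.64 and 3.26 CPM in 2KO; both encode transmembrane collagens and overlapped fully. Col26a1 was at 1.38 ± 0.983 CPM in control and 1.95 ± 2.04 CPM in 2KO (SD, n = 3 each; edgeR adjusted p = 0.825).

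In all, 9 members were too low to test, namely Col5a3, Col6a4, Col6a5, Col9a1, Col9a2, Col13a1, Col22a1, Col24a1 and Col28a1, and none of them passed when the filter was removed. Col28a1 had 33 counts over control and 3 over 2KO, a ratio of 2KO to control of 0.101 (95% exact interval 0.0198 to 0.321, counting error only), with 22 of the 33 in control replicate 3. Col13a1 had 2 and 8 counts.

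Summed over a class, the level in 2KO was above control in every library for the basement membrane (534 to 607 CPM in control, 653 to 748 CPM in 2KO), beaded filament (29.3 to 35.8 and 81.5 to 194) and multiplexin genes (102 to 185 and 274 to 474). These rises lay in the abundant members Col4a1 and Col4a2, Col6a1 and Col6a2, and Col18a1. In the basement membrane class 4 of 6 genes had a fold change below 0. The fibrillar sum overlapped (368 to 657 and 624 to 665), with control replicate 1 at 657 CPM, as did the FACIT sum (571 to 611 and 296 to 666). All 42 genes together took 0.172% to 0.209% of a control library's counts and 0.219% to 0.258% of a 2KO library's. These sums were not tested.

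**Figure D4:**
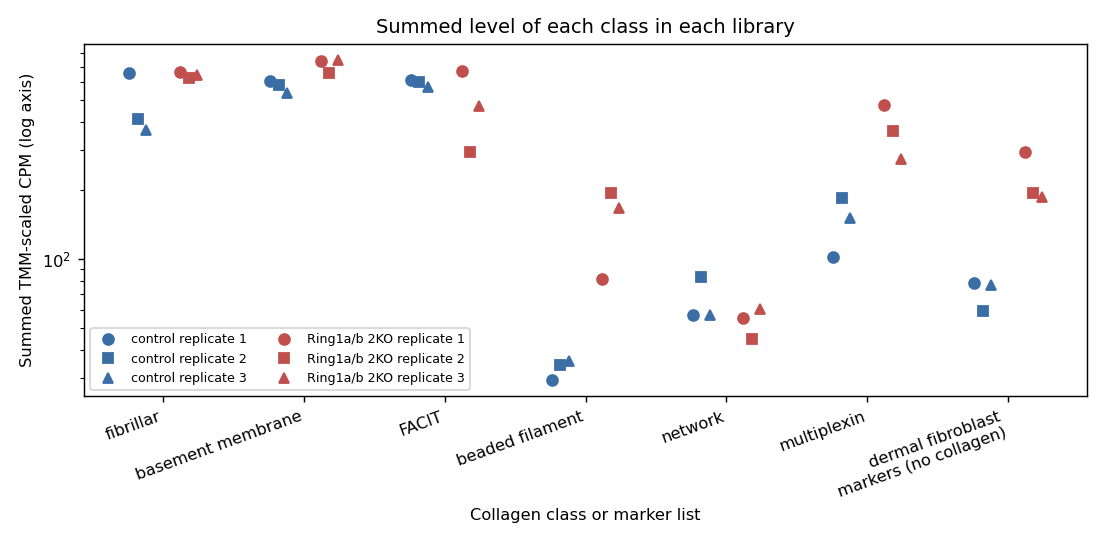
Summed TMM-scaled CPM (y axis, log scale) of 6 collagen classes and of 10 dermal fibroblast markers that are not collagens (x axis), 1 point per library, with symbols for the replicate number. The 2KO libraries lie above control for beaded filament (81.5 to 194 against 29.3 to 35.8 CPM) and multiplexin genes and for the fibroblast markers (187 to 296 against 59.1 to 78.5 CPM), and overlap with control for fibrillar and FACIT genes.

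Of the 7 higher members, 3 lay in 1 stretch of 570.8 kb on chromosome 10 (76595762 to 77166548), in the order Col6a2, Col6a1 and Col18a1, all on the minus strand. Besides them the stretch held 3 rows of the count tables. Of these Pcbp3, which encodes an RNA-binding protein and lies between Col6a1 and Col18a1, was higher in 2KO as well, at 8.91 ± 3.26 CPM in control and 33.0 ± 8.04 CPM in 2KO (SD, n = 3 each; edgeR log2 fold change 1.89 with SE 0.32, adjusted p = 0.00714). Slc19a1, a folate transporter gene whose 3′ end lies within the Col18a1 gene on the other strand, was at 20.4 ± 8.14 and 26.6 ± 9.21 CPM (edgeR adjusted p = 0.624), and Gm10787 was too low to test. Neighbouring members did not always share a call. Col3a1 and Col5a2 lie tail to tail on chromosome 1, 24614 bp apart, and Col5a2 passed while Col3a1 did not.

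Replicate 1 of the control group stood apart for collagens. It was the highest control library for 24 of the 33 tested members (72.7%), where it was the highest for 36.0% of all tested genes. Among the 2KO libraries replicate 1 was the highest for 17 members (51.5%, against 37.4% of all tested genes) and replicate 3 for 12 (36.4%, against 33.2%). Among members with a mean of at least 10 CPM, of which there were 20, the median coefficient of variation was 27.4% in control and 21.8% in 2KO, where 9140 genes at that level had 16.2% and 19.5%.

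Genes that act on collagens were taken from a list of 53, of which 52 had a row and 45 were tested. Of these 8 were higher in 2KO and 2 lower (17.8% and 4.44%, against 6.61% and 2.42% of all tested genes), with a median log2 fold change of 0.31. The higher count was 5 when control replicate 2 or 3 or 2KO replicate 2 was left out, where the share of all tested genes called higher was 5.16%, 3.98% and 4.43%, and 3 with both libraries numbered 3 left out (2.04% of all tested genes). The lower count was 0 without control replicate 1 (1.28% of all tested genes) and 1 without control replicate 2 (1.53%). It was also 1 without 2KO replicate 2 (1.19%) or 2KO replicate 3 (1.44%).

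The 4-hydroxylation of proline stabilises the helix, and both proline and lysine are hydroxylated in the endoplasmic reticulum. In this role 3 of 14 tested genes were higher (21.4%, against 6.61% of all tested genes) and none lower. The counts were 5 and 0 at an unadjusted p under 0.05 and with DESeq2, and 4 and 0 with limma-voom. P4ha2, a catalytic subunit of prolyl 4-hydroxylase, was at 3.26, 5.91 and 3.92 CPM in control and 20.9, 30.1 and 42.6 CPM in 2KO (edgeR log2 fold change 2.84 with SE 0.36, adjusted p = 0.00193). P4ha1, the alternative subunit, was at 24.2, 25.9 and 25.5 CPM in control and 36.2, 44.7 and 64.9 CPM in 2KO (edgeR adjusted p = 0.0443). P3h1, a prolyl 3-hydroxylase, was at 12.5 ± 0.688 and 24.6 ± 2.08 CPM (SD, n = 3 each; edgeR adjusted p = 0.0277). P4hb, the shared subunit and the most abundant gene of the role, was at 242 ± 8.35 and 217 ± 44.7 CPM (edgeR adjusted p = 0.704). The calls of P4ha1 and P3h1 were each lost on leaving out any library except 2KO replicate 1, with edgeR adjusted p from 0.0857 to 0.124 for P4ha1 and from 0.0654 to 0.109 for P3h1.

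Among 4 tested genes of folding and export, the collagen chaperone gene Fkbp10 rose from 3.37, 5.36 and 5.89 CPM to 18.5, 17.1 and 8.63 CPM (edgeR log2 fold change 1.6 with SE 0.39, adjusted p = 0.0318), a call lost on leaving out any library except 2KO replicate 3 (edgeR adjusted p from 0.0647 to 0.104). Mia3, an export factor for collagens and the most abundant of the role, was at 138 ± 8.41 and 150 ± 13.8 CPM (edgeR adjusted p = 0.74). Of 6 tested genes of propeptide cleavage none passed by edgeR, DESeq2 or limma-voom, and 1 was higher at an unadjusted p under 0.05. Bmp1, the main procollagen C-proteinase, was at 109 ± 27.2 and 135 ± 5.77 CPM (edgeR adjusted p = 0.44).

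Lysyl oxidases cross-link collagen chains, and 2 of 5 tested were higher, where 6.61% of all tested genes were. Loxl2 was at 4.29, 3.10 and 2.91 CPM in control and 23.1, 10.5 and 11.3 CPM in 2KO (edgeR log2 fold change 2.12 with SE 0.40, adjusted p = 0.011). Loxl1, named after its values were seen, was at 0.355, 0.0969 and 0 CPM in control and 6.04, 4.21 and 3.69 CPM in 2KO (edgeR adjusted p = 0.0144); it met the low-count filter in all 3 2KO libraries and 1 control library, so its entry into the test rested on its level in 2KO. Lox itself was low, at 2.61 ± 0.801 and 1.40 ± 0.277 CPM (edgeR adjusted p = 0.421).

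Fibril-binding genes moved both ways, with 1 higher and 1 lower of 5, against 6.61% and 2.42% of all tested genes. Bgn, which encodes the proteoglycan biglycan, fell from 215, 132 and 93.3 CPM to 83.2, 42.1 and 42.8 CPM (edgeR log2 fold change -1.39 with SE 0.36, adjusted p = 0.0401). The call was lost without control replicate 1 or 2 (edgeR adjusted p = 0.124 and 0.0638) and without 2KO replicate 2 or 3 (edgeR adjusted p = 0.136 and 0.135). Bgn, a gene of the X chromosome, also did not pass with the level of Xist as a covariate (edgeR adjusted p = 0.169). The same held with both libraries numbered 3 left out (edgeR adjusted p = 0.123). Fmod (fibromodulin), named after its values were seen, was at 1.95 ± 1.10 CPM in control and 13.6 ± 8.23 CPM in 2KO (SD, n = 3 each; edgeR adjusted p = 0.0214, and 0.066 without 2KO replicate 1). The call of Fmod was also lost with Xist as a covariate (edgeR adjusted p = 0.108) and with both libraries numbered 1 left out (edgeR adjusted p = 0.0899). Sparc, a collagen-binding glycoprotein and the most abundant gene of the role, was at 394, 366 and 553 CPM in control and 811, 945 and 560 CPM in 2KO, without overlap but short of the threshold (edgeR adjusted p = 0.0652). It passed as higher with DESeq2 (adjusted p = 0.015) and limma-voom (adjusted p = 0.0473).

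Of 8 tested receptors 1 was higher and 1 lower (12.5% each, against 6.61% and 2.42% of all tested genes). Mrc2, a receptor that takes up collagen, was at 10.4, 19.4 and 18.6 CPM in control and 33.7, 56.2 and 58.7 CPM in 2KO (edgeR log2 fold change 1.62 with SE 0.31, adjusted p = 0.0123). Itga1, whose product pairs with integrin β1 as a receptor for types I and IV collagen, fell from 41.1, 27.6 and 18.1 CPM to 7.57, 1.13 and 3.88 CPM (edgeR log2 fold change -2.79 with SE 0.60, adjusted p = 0.0193). Its call was lost without control replicate 1 (edgeR adjusted p = 0.0575) or 2KO replicate 3 (edgeR adjusted p = 0.0764). The call of Itga1 was also lost with Xist as a covariate (edgeR adjusted p = 0.0825) and with both libraries numbered 3 left out (edgeR adjusted p = 0.126). Itgb1 was at 290, 271 and 227 CPM in control and 554, 229 and 231 CPM in 2KO, with 2KO replicate 1 apart from the rest (edgeR adjusted p = 0.595). Of 3 tested genes of collagen degradation none passed by edgeR, DESeq2 or limma-voom, or at an unadjusted p under 0.05. Mmp14, a membrane collagenase, was at 191 ± 12.6 and 165 ± 12.4 CPM (edgeR adjusted p = 0.497).

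Markers of other cell types were summed in the same way. The sums were 8.11 to 18.7 CPM in control and 13.5 to 52.5 CPM in 2KO for dermal papilla, 3.81 to 10.3 and 3.47 to 14.2 for endothelial, 113 to 194 and 183 to 265 for pericyte and smooth muscle, 24.3 to 37.9 and 37.0 to 49.0 for Schwann, 13.8 to 23.6 and 13.3 to 45.0 for melanocyte and 9.27 to 16.9 and 6.08 to 17.6 for immune markers. Skeletal muscle markers summed to 1.00 to 1.14 and 0.601 to 0.784 CPM. No marker was at 0 in all 6 libraries. Tested were 5 dermal papilla, 4 endothelial, 5 pericyte and smooth muscle, 4 Schwann, 4 melanocyte, 5 immune and 1 skeletal muscle marker. Of these only Acta2, in the pericyte and smooth muscle list, was higher in 2KO, where 6.61% of all tested genes were. A single call over these lists is not a result about a cell type.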

How the data were processed

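Bulk RNA sequencing was done on 6 libraries, 3 control and 3 Ring1a/b 2KO; per the labels' protocols, amplification started from 10 ng of RNA, library preparation from 100 ng of cDNA, and reads were single-end, 100 nt long. The deposited files hold the authors' raw counts per gene symbol, not normalized. Per the submitters' processing notes the tools were TopHat2 2.0.13, Cufflinks 2.2.1, HTSeq 0.6.1 and DESeq2 1.6.3 with build mm10; annotation, strand setting and filters are not given there. Molecular identifiers are not mentioned, so intervals and floors (3 counts) cover counting error only.

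From these counts, genes were kept by filterByExpr (0.345 CPM in at least 3 libraries), which left 14972, scaled by TMM and tested with edgeR 4.0.16 (R 4.3.3; glmQLFit, glmQLFTest, no covariate), with Benjamini-Hochberg adjustment over all tested genes and a threshold of 0.05. DESeq2 1.42.0 and limma 3.58.1 (voom) served as alternatives among 17 settings. The procedure was tested on simulated data. Values are CPM per library or mean ± SD. Positions, exon lengths and overlaps are from GENCODE vM21 (GRCm38, the assembly of mm10), in which 97.1% of rows and all 42 members matched 1 gene; promoters are from RefSeq (33 members matched). Named were all members, and from the list of genes acting on collagens those past the threshold, up to 8 by mean CPM, and the most abundant of each role. Members, lists and alternatives were chosen with earlier results of these data known.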

Additional observations from a re-analysis of the deposited data

How the results depend on the processing

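Over 51 named genes and up to 17 settings each, 753 of 865 values kept their direction and their side of the threshold, 55 lost the call, 20 gained one and 37 changed sign. All 7 higher members passed with DESeq2 size factors in edgeR, upper-quartile scaling, DESeq2, limma-voom, both other low-count filters, the replicate block and without the Rn45s row, and Col2a1, Col5a1 and Col6a2 passed in every setting.

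The number of higher members was 3 with both libraries numbered 3 left out (2.04% of all tested genes). It was 5 to 9 with 1 library left out (3.98% to 5.53%). With Xist as a covariate it was 5 (5.05%), and the calls of Col18a1 and Col19a1 were lost. Lower members numbered 1 with DESeq2 (4.9% of all genes with an adjusted p), 1 with no low-count filter (2.38%) and 1 with the replicate block (3.61%). They numbered 2 with both libraries numbered 1 left out (1.73%) and 0 to 1 with 1 library left out (1.19% to 2.25%). For the list of genes acting on collagens, 3 were higher with both libraries numbered 3 left out (2.04% of all tested genes). With 1 library left out 5 to 7 were (3.98% to 5.53%). In that list 0 were lower with Xist as a covariate (1.54% of all tested genes) and 0 with both libraries numbered 3 left out (0.476%). With 1 library left out 0 to 2 were lower (1.19% to 2.25%). The causes were not tested.

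Same-numbered libraries did not all deviate together (correlations of deviations from the group means 0.323, 0.096 and -0.13 for numbers 1, 2 and 3), and not every library correlated best with its own number, so the numbers were not used as pairs. With the replicate number as a block, 9 members were higher and 1 lower, and 9 and 2 genes acting on collagens; over all genes 1142 were higher and 540 lower, against 989 and 362 without it. The calls gained with the block were Col11a1 (edgeR adjusted p = 0.0127) and Col9a3 (0.0221) as higher and Col14a1 as lower (log2 fold change -1.90, edgeR adjusted p = 0.0146).

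The sign changes concerned genes far from the threshold. Col10a1 was at a log2 fold change of -0.01 with limma-voom, -0.01 with the replicate block and -0.58 with both libraries numbered 3 left out, Col1a2 at 0.07 with Xist and 0.04 with both numbered 1 left out, and Col23a1 at -0.50, Col3a1 at -0.13 and P4hb at 0.03 with both numbered 3 left out. Col25a1 was at -0.01 with upper-quartile scaling, -0.01 with no low-count filter, -0.01 without Rn45s and -0.21 with both numbered 3 left out, and Col26a1 at -0.12 and Itgb1 at -0.10 with both numbered 1 left out. With 1 library left out, values spanned 0 in both directions: -0.38 to 0.30 for Col10a1, -0.07 to 0.84 for Col11a2, -0.18 to 0.17 for Col12a1, -0.39 to 1.25 for Col15a1, -0.34 to 0.26 for Col1a2, -0.27 to 0.58 for Col23a1, -0.82 to 1.15 for Col25a1, -0.81 to 1.19 for Col26a1, -0.16 to 0.74 for Col3a1, -0.32 to 2.11 for Col6a6, -0.36 to 1.78 for Col8a2, -0.27 to 0.02 for P4hb and -0.18 to 0.59 for Itgb1.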

Other observations

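Because Col2a1, a cartilage collagen, had the largest change among the members, other genes of cartilage matrix and their regulators were looked up; this set of 10 was chosen after the value of Col2a1 was seen, and only values are given. Acan, the main cartilage proteoglycan, was at 0.0355, 0.258 and 0 CPM in control replicates 1, 2 and 3 and at 7.45, 7.98 and 4.51 CPM in 2KO. The other matrix genes were low in both groups. Hapln1, which encodes a link protein, Matn1, Matn3 and Cnmd lay under 0.2 CPM in every library, Comp under 0.6, and Matn4 was at 2.11 ± 1.98 CPM in control and 1.58 ± 0.645 CPM in 2KO (SD, n = 3 each).

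Of the transcription factors known to drive Col2a1 and Acan in cartilage, Sox9 was at 509, 302 and 268 CPM in control and 510, 211 and 271 CPM in 2KO, overlapping. Sox6 was at 108, 156 and 145 CPM and 55.4, 96.4 and 172 CPM, overlapping. Sox5 was lower in 2KO in every library, at 75.3, 39.8 and 36.0 CPM in control and 17.3, 17.7 and 18.1 CPM in 2KO.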
